A study of Homo sapiens with 24 samples.

Results

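The arrays compared here are the 8 of 24 that the labels assign to CHP-212, an established human neuroblastoma cell line: 4 of cells with a FOXP1 transgene and 4 of cells with a GFP transgene. They were chosen by these labels alone, without use of any measured value. The other 16 arrays hold the same design in the neuroblastoma lines IMR-32 and SK-N-BE(2). In both groups the transgene had been brought in with a retroviral Tet-On system, in which doxycycline activates the promoter through a reverse transactivator that the cells also carry. RNA was taken at 0, 12, 24 and 72 h of induction, 1 array per time point and transgene. Both cultures were polyclonal, and the study's text gives leakage of the promoter as its reason for a GFP culture as the control. The labels do not say whether the time points were taken from 1 dish or from separate dishes of the pool. Each group is read here as 1 culture followed over time, and the spread among its 4 arrays includes the time course but not the variation between separately made cultures. The comparison asks which transcripts differ between FOXP1-expressing cells and GFP-expressing controls over the time points.

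FOXP1 is a forkhead transcription factor that binds DNA as a dimer with itself or its close relatives and acts mainly as a repressor. It is known from the development of lymphocytes, heart and lung, and in motor neurons it sets subtype identity together with HOX proteins. Neuroblastoma arises from the sympathoadrenal branch of the neural crest, whose cells can also give rise to glia and, in the head, to mesenchyme.

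The share of probes with a signal well above background, a flag that the scanner software sets per spot, was 53.9, 55.7, 81.5 and 80.2% on the FOXP1 arrays of 0, 12, 24 and 72 h and 60.4, 58.1, 80.6 and 78.0% on the GFP arrays. The arrays of 0 and 12 h, both FOXP1 and GFP, shared a slide, and those of 24 and 72 h shared another, so that slide and time cannot be told apart. On each slide, however, both cultures are present. The lowest signal flagged as well above background, on the log2 scale and counted from the array's 75th percentile, lay at -3.87, -3.89, -6.62 and -6.70 on the FOXP1 arrays and at -4.43, -4.32, -6.64 and -6.42 on the GFP arrays. A dim transcript thus had to be several times brighter to be measured at 0 and 12 h than at 24 and 72 h. Within the 0 and 12 h slide the limit was also higher on the FOXP1 arrays than on the GFP arrays. Levels below are log2 intensities relative to the 75th percentile of the array, and they are compared between arrays, for the same probe or the same sum of probes, since probes differ in how strongly they bind. Where the dimmer culture was not well above background on all of its 4 arrays, the fold is given as a lower bound, in which each of its signals that was not well above background enters as the higher of its own value and the lowest signal well above background on its array. Where its own value was the higher, as for NPY, CCN2, LTBP1 and SYT17 below, the bound equals the fitted fold. The bound allows for the limit of detection alone, not for the spread among arrays or the background correction. After the normexp background correction, an alternative given below, differences such as that of NPY were smaller than the bound.

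The transgene's product was checked first. The level of FOXP1 was 2.81, 3.28, 3.00 and 2.94 on the FOXP1 arrays of 0, 12, 24 and 72 h and 0.77, 1.20, 1.08 and 1.05 on the GFP arrays. All FOXP1 arrays lay above all GFP arrays, at 0 h as at the later times. The difference was 1.98 (standard error 0.17, adjusted p = 0.000443, limma). The probe does not tell the transgene's transcript from the cell's own.

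NPY, DNER, SSTR2 and NEFL were taken as markers of the cultures. NPY, a sympathetic neurotransmitter peptide, had levels of -1.91, -1.95, -1.53 and -1.65 on the FOXP1 arrays and -3.99, -4.29, -4.17 and -3.86 on the GFP arrays. It was well above background on all FOXP1 arrays and on 3 of 4 GFP arrays, and it was at least 4.99-fold (adjusted p = 0.000209) higher in FOXP1 cells. DNER, a neuronal transmembrane ligand of Notch, had levels of -2.03, -2.94, -2.66 and -3.20 and -4.53, -5.20, -6.28 and -6.04. It was measured on 2 of 4 GFP arrays, those of 24 and 72 h, and was at least 5.91-fold (adjusted p = 0.00615) higher. NEFL, the light subunit of neurofilaments, had levels of 4.94, 3.67, 3.36 and 2.70 and 2.14, 2.19, 1.81 and 1.47, which do not overlap between the cultures. Its difference of 1.76 missed the threshold (adjusted p = 0.0558), and it passed in some of the alternative fits and not in others; it passed without the FOXP1 array of 0 h (1.34, adjusted p = 0.0463) or that of 72 h (2.09, 0.0199), after the normexp background correction (1.68, 0.026), among probes well above background on all 8 arrays (0.0322) and with the slide as a block (adjusted p = 0.0154). The normexp correction gave 1.71 for NPY and 1.45 for DNER. SSTR2 is described with the lead genes.

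Markers of the sympathetic neuroblast were well above background in both cultures, 6, 7, 9 and 9 of 10 on the FOXP1 arrays of 0, 12, 24 and 72 h and 6, 6, 9 and 9 of 10 on the GFP arrays. Their summed level, in multiples of the array's 75th percentile, was 27.6, 29.9, 32.0 and 35.8 and 18.6, 20.7, 30.0 and 32.8 on the FOXP1 and GFP arrays. STMN2 and TH, neither of them called, were the brightest members and made up most of this sum. Their mean levels were 4.29 and 3.28 on the FOXP1 arrays and 3.89 and 3.05 on the GFP arrays. Such sums weigh the bright members of a list most. Among 9 neuroblast markers tested, 4 were called higher and 1 lower. Counts of this kind, here and for the other marker lists, stand beside 14.3% higher and 8.23% lower among all probes with a symbol and 1.93 and 1.08% among all probes. TH, the first enzyme of catecholamine synthesis, had a difference of 0.23 (adjusted p = 0.65), which was -0.10 on the 24 and 72 h slide. RET, a receptor of neurotrophic factors of the GDNF family, had a difference of -1.01 (adjusted p = 0.0701) and passed the threshold with the slide as a block (adjusted p = 0.00556), among probes well above background on all 8 arrays (0.0413) and after the normexp correction (-1.06, 0.0488). Of the neuroblast list, 2 of these 5 calls held with each array left out in turn, and 3 after the normexp correction.

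Of 8 mesenchymal or fibroblast markers, 5, 5, 7 and 7 were well above background on the FOXP1 arrays and 5, 5, 7 and 6 on the GFP arrays, with summed levels of 27.4, 29.6, 30.8 and 32.6 and 27.4, 32.6, 34.8 and 29.7. PRRX1 was well above background on no array. Of 6 tested, PDGFRA, a growth factor receptor, and SNAI1, a zinc finger repressor of epithelial genes, were called higher, and DCN, a small matrix proteoglycan, lower. DCN had levels of 1.07, 1.22, 1.62 and 1.57 on the FOXP1 arrays and 2.41, 2.90, 3.12 and 2.90 on the GFP arrays and was 2.76-fold (log2 difference -1.46, adjusted p = 0.00574) lower, so that the members did not share a direction. The 6 glial markers summed to 3.06, 2.83, 2.98 and 2.75 on the FOXP1 arrays and 2.17, 2.54, 3.29 and 2.98 on the GFP arrays. CDH19 was well above background on no array, and 1 of 5 tested genes was called higher and 0 lower, a call that was lost with single arrays left out and after the normexp correction.

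The 5 endothelial markers summed to 0.312, 0.291, 0.269 and 0.208 on the FOXP1 arrays and 0.115, 0.189, 0.177 and 0.234 on the GFP arrays. PECAM1 was well above background on 0 FOXP1 arrays and 1 GFP array, while TEK, the angiopoietin receptor, was at least 4.74-fold (adjusted p = 0.00012) higher in FOXP1 cells, as the only call among 4 tested genes. CD34 is an endothelial and progenitor sialomucin of the same list. Its difference was -1.72 (adjusted p = 0.0627), with 2 of 4 FOXP1 arrays measured and a lower bound of 2.05-fold. It missed the threshold and passed without the FOXP1 array of 0 h (-2.04, adjusted p = 0.0337), without both 0 h arrays (-2.26, 0.0397) and in some of the other fits. After the normexp correction the CD34 difference was -0.47. The 5 leukocyte markers summed to 0.227, 0.123, 0.165 and 0.143 on the FOXP1 arrays and 0.677, 0.763, 1.06 and 1.24 on the GFP arrays. PTPRC and CD48 were well above background on no array and CD53 on 1 GFP array. CD52, a small surface glycoprotein, was at least 8.34-fold (adjusted p = 0.00123) lower in FOXP1 cells, with 3 of 4 FOXP1 arrays measured, as 1 of 2 genes tested. Its mean level was -3.39 on the FOXP1 arrays and -0.24 on the GFP arrays, and on the GFP arrays it made up most of the list's sum. With the normexp correction the differences were 1.51 for TEK and -2.45 for CD52. In cultures measured as a whole, a change in the number of cells of a kind and a change in the RNA per cell cannot be told apart, and the part of any of these markers in the results below was not tested.

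Over all probes, 994 of the 32958 tested (3.02%) were called at an adjusted p under 0.05 and a fold of at least 2, 637 (1.93%) higher and 357 (1.08%) lower in FOXP1 cells. In 4626 probes (14.0%) the levels of the cultures did not overlap, among them 993 of the called ones. With the slide as a block the count was 1239, which held all 994. On the 24 and 72 h slide alone, with 2 arrays against 2, the count was 543, and on the 0 and 12 h slide alone it was 90. Of the named genes that were called, 61 lost the call on the first of these and 91 on the second. All 994 called probes had the same direction on both slides, which levels without overlap bring with them. The counts after normexp correction, with probes well above background on all 8 arrays and without both 0 h arrays were 604, 628 and 638.

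The calls were counted by detection on the slides. Of the 22057 probes well above background on all 8 arrays, 554 (2.51%) were called. Of the 5684 well above background on the 4 arrays of 24 and 72 h and on none of 0 and 12 h, 61 (1.07%) were called. Of the 5217 with any other pattern of detection, 379 (7.26%) were called. A difference between the cultures itself helps to set on which arrays a probe is detected, so these shares describe the calls and do not measure an effect of detection. Of the 440 called probes that were not well above background on all 8 arrays, 395 had all 4 arrays of 24 and 72 h and fewer than 4 of 0 and 12 h, and 0 had the reverse. Among all 10901 tested probes not well above background on all 8 arrays, these patterns had 10741 and 11. The dimmer culture was incompletely measured for 242 of the probes called higher and 198 of those called lower. Its lower bound was at least 2-fold for 190 and 112 of them, and for the rest a 2-fold size rests in part on signals under the limit of detection.

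**Figure D1:**
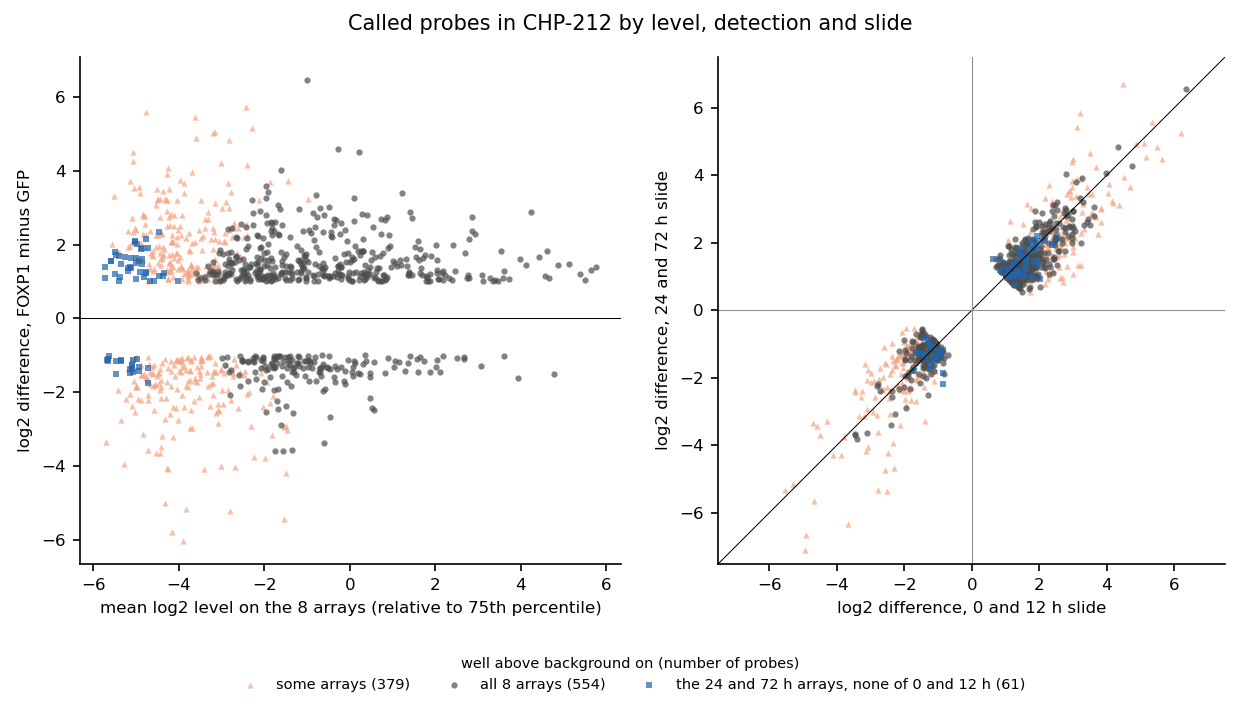
Each point is 1 of the 994 called probes of CHP-212. Left, its log2 difference (FOXP1 minus GFP arrays) against its mean log2 level; right, the difference on the 24 and 72 h slide against that on the 0 and 12 h slide, with the line of equal values. Colour and shape give detection: 554 probes were well above background on all 8 arrays, 61 on the 24 and 72 h arrays but none of 0 and 12 h, and these lie at the dim end. Every point is on the same side of 0 on both slides, as nearly all must be, since the levels of 993 do not overlap.

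Gene symbols were available for 2322 of the tested probes. They come from the study's list of probes that differed at least 2-fold in a line, so a symbol is itself tied to a difference on these arrays. Among probes with a symbol, 524 (22.6%) were called, 333 (14.3%) higher and 191 (8.23%) lower, and 520 of the 524 stood on the study's list for CHP-212. The counts of gene groups below are read against these shares and are not independent evidence of a direction. A further 470 called probes had no symbol.

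The lead genes are the called ones with the largest differences among genes well above background on all 8 arrays, 12 in each direction, of which 3 carry provisional names and are counted only. SSTR2, an inhibitory receptor for the peptide somatostatin, had levels of 2.59, 1.98, 1.62 and 1.94 on the FOXP1 arrays of 0, 12, 24 and 72 h and -1.79, -2.30, -3.23 and -2.91 on the GFP arrays. Every FOXP1 array was far above every GFP array. The difference was 24.1-fold (log2 difference 4.59, standard error 0.34, adjusted p = 0.000203), the largest of the described lead genes in this direction. PDGFRA, the receptor of platelet-derived growth factors on mesenchymal and some neural crest cells, had levels of -0.81, -0.22, -0.15 and 0.40 and -3.67, -3.51, -3.58 and -3.76. The GFP arrays were nearly level and the FOXP1 arrays were lowest at 0 h and highest at 72 h, and the difference was 10.8-fold (log2 difference 3.44, standard error 0.24, adjusted p = 0.000163). DKK1, a secreted antagonist of Wnt signals, had levels of 3.01, 2.76, 2.71 and 3.26 and 0.36, -0.16, -1.26 and -0.82. Its difference of 10.6-fold (log2 difference 3.40, standard error 0.33, adjusted p = 0.000841) was 2.79 on the 0 and 12 h slide and 4.02 on the 24 and 72 h slide, where the GFP arrays were lower.

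THBS4 and COMP encode pentameric thrombospondins of the extracellular matrix. THBS4 had levels of 1.20, 0.98, 0.79 and 0.52 on the FOXP1 arrays and -2.38, -2.68, -2.21 and -2.61 on the GFP arrays, and COMP levels of 2.69, 2.77, 3.03 and 2.91 and -0.18, 0.12, -0.12 and -0.01. Both separated the cultures by several log2 units with little spread within them. THBS4 was 10.1-fold (log2 difference 3.34, standard error 0.19, adjusted p = 5.78e-05) higher and COMP 7.43-fold (log2 difference 2.89, standard error 0.15, adjusted p = 3.33e-05). The other described lead genes higher in FOXP1 cells differed between 7.81- and 9.67-fold. HSPB3, a small heat shock protein of muscle and nerve, was 9.67-fold (log2 difference 3.27, adjusted p = 0.00137) higher, FMN2, an actin-nucleating formin of neurons and oocytes, 9.56-fold (log2 difference 3.26, adjusted p = 0.00112), and COLEC11, a collectin that binds sugars and starts complement, 8.37-fold (log2 difference 3.07, adjusted p = 0.000477). BDKRB1, the inducible bradykinin receptor, was 8.06-fold (log2 difference 3.01, adjusted p = 0.000517) higher and KCNMA1, the pore of the large-conductance calcium-activated potassium channel, 7.81-fold (log2 difference 2.97, adjusted p = 5.02e-05). All were higher at 4 of 4 time points. The normexp correction moved 3 of these differences by more than 1.5-fold, to 2.76 for PDGFRA, 2.51 for FMN2 and 2.45 for COLEC11, each with the call kept.

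In the other direction, RPRML, a small protein related to the cell cycle inhibitor reprimo, had levels of -3.56, -3.61, -3.49 and -3.49 on the FOXP1 arrays and -0.39, 0.15, 0.29 and 0.14 on the GFP arrays. The FOXP1 arrays were nearly level, well under all GFP arrays. The difference was 12.0-fold (log2 difference -3.58, standard error 0.18, adjusted p = 3.09e-05). GALNT18, listed as GALNTL4 and a member of the family that starts O-linked glycosylation, had levels of -2.70, -3.21, -3.08 and -3.50 and 0.54, 0.43, 0.31 and 0.44 and a difference of 11.8-fold (log2 difference -3.56, standard error 0.19, adjusted p = 3.75e-05). KREMEN2, a membrane protein that works with DKK1 in removing Wnt co-receptors from the cell surface, had levels of -1.93, -2.73, -1.93 and -2.60 and 0.68, 0.87, 1.26 and 1.48. It was lower in FOXP1 cells, while its partner DKK1 was higher, with a difference of 10.3-fold (log2 difference -3.37, standard error 0.26, adjusted p = 0.000298). BASP1, an abundant membrane protein of axon growth cones, had a mean level of -0.59 (SD 0.23, n = 4) on the FOXP1 arrays and 1.55 (SD 0.14, n = 4) on the GFP arrays, and the difference was 4.43-fold (log2 difference -2.15, standard error 0.17, adjusted p = 0.000311).

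CRYM, a thyroid hormone-binding protein of the cytosol, was 7.45-fold (log2 difference -2.90, adjusted p = 0.0126) lower, and its call was lost without both 0 h arrays (adjusted p = 0.0662) and under the methods' t-test with adjustment. RRAGD, a small GTPase that brings mTORC1 to lysosomes, was 5.79-fold (log2 difference -2.53, adjusted p = 0.000132) lower and ARHGEF16, a guanine nucleotide exchange factor, 5.47-fold (log2 difference -2.45, adjusted p = 0.00012). FXYD6, a regulator of the sodium pump, was 5.21-fold (log2 difference -2.38, adjusted p = 0.000466) lower, and HSD11B2, the enzyme that inactivates cortisol, 4.72-fold (log2 difference -2.24, adjusted p = 0.00121). SNCG, gamma-synuclein of peripheral neurons, was 3.81-fold (log2 difference -1.93, adjusted p = 0.00669) lower and LAMC3, a laminin chain, 3.76-fold (log2 difference -1.91, adjusted p = 0.00197). All were lower at 4 of 4 time points. Among the genes lower in FOXP1 cells, the normexp correction moved 6 differences by more than 1.5-fold, to -2.63 for RPRML, -2.96 for GALNT18, -2.27 for CRYM, -1.86 for RRAGD, -1.66 for FXYD6 and -1.53 for HSD11B2, each with the call kept.

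**Figure D2:**
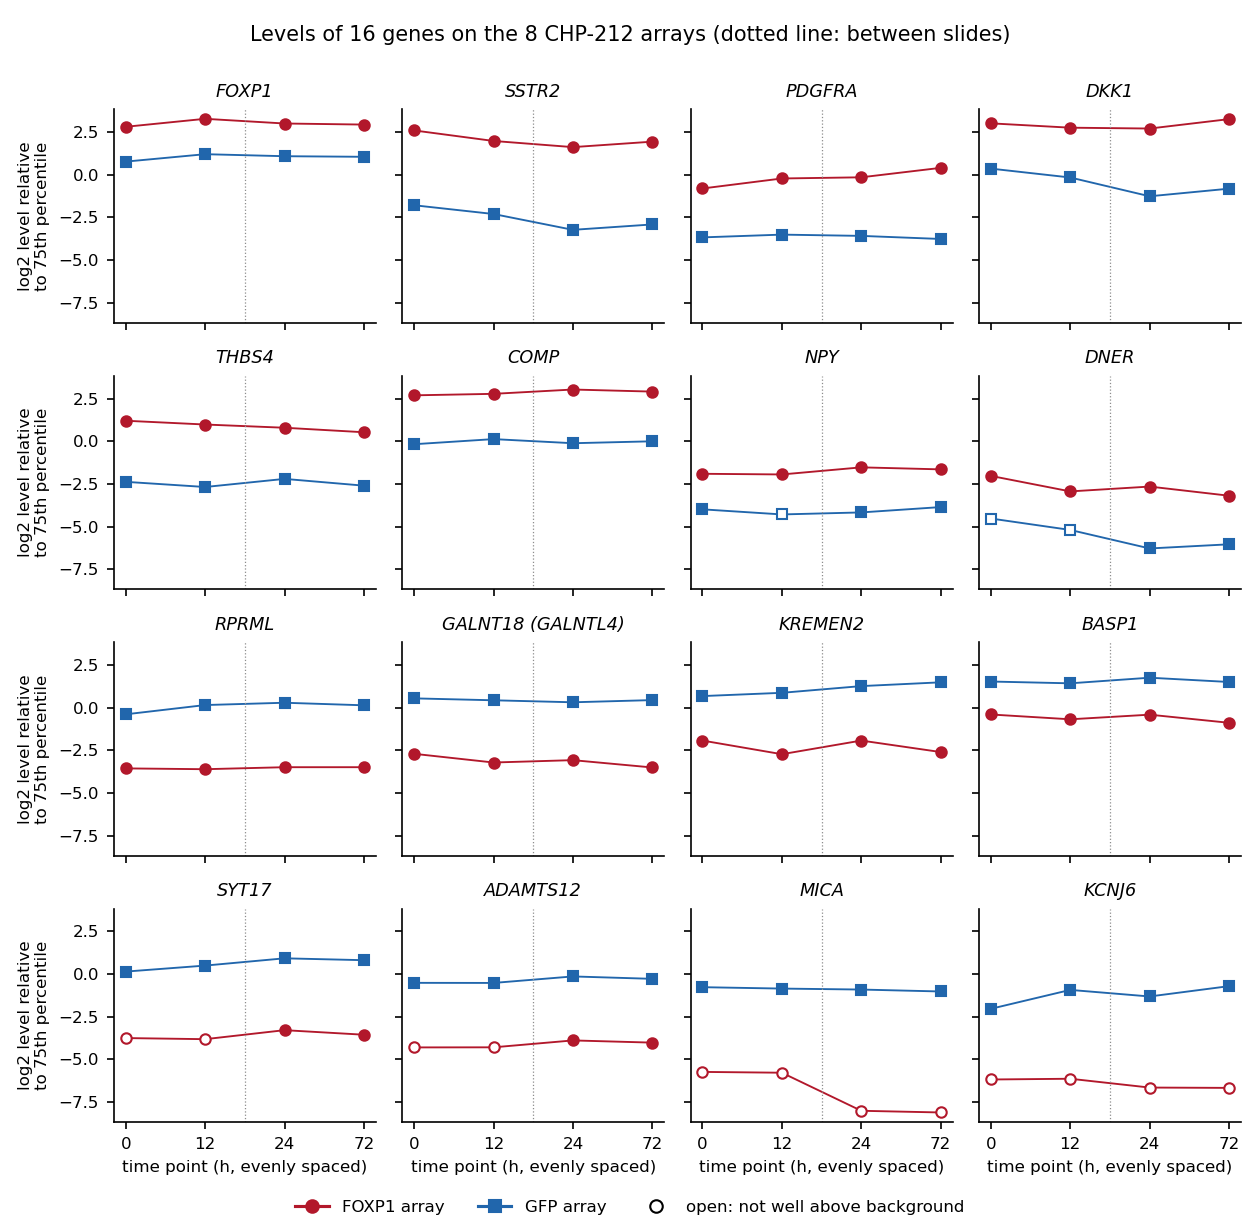
Log2 level (intensity relative to the 75th percentile of the array) of 16 genes on each of the 8 CHP-212 arrays, FOXP1 arrays as red circles and GFP arrays as blue squares, against time point in h. Open symbols mark signals not well above background and the dotted line parts the slides. In each panel the cultures do not overlap, and open symbols are on the dimmer culture alone: at 0 and 12 h for DNER, SYT17 and ADAMTS12, at 12 h for NPY, and at all times for MICA and KCNJ6.

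Since FOXP1 binds DNA, the promoters of the lead genes are shown where the reference holds them. It held 9 of the 21 described lead genes, 6 higher and 3 lower, as 300 bases each (250 before to 50 after the start site) from RefSeq on GRCh38.p14. The forkhead core TGTTTAC and the forms TATTTAT and TATTTGT were searched on both strands; none of them overlapped another in these windows. They occur in 3.423, 4.927 and 3.497% of all 35116 promoters of this length, and any of them in 10.87%. Among the lead genes 2 held a match, both higher in FOXP1 cells, HSPB3 and COMP, and of all 73 named genes with a promoter 6 did (8.22%). The sequences below are those with a match, capitals marking it on either strand, and those of the described lead genes with the largest difference in each direction, SSTR2 and RPRML, which hold none. SSTR2 lies at chr17:73164760-73165059, plus strand, HSPB3 at chr5:54455449-54455748, plus strand, COMP at chr19:18791256-18791555, minus strand, and RPRML at chr17:46979204-46979503, minus strand, each given 5′ to 3′ on the strand of the gene.
SSTR2: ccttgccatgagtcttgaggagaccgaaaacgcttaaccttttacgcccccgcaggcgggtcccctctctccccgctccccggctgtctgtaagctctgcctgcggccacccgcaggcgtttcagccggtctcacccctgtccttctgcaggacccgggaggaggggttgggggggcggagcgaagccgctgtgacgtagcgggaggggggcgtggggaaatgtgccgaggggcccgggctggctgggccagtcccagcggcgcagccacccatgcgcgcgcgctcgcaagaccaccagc
HSPB3: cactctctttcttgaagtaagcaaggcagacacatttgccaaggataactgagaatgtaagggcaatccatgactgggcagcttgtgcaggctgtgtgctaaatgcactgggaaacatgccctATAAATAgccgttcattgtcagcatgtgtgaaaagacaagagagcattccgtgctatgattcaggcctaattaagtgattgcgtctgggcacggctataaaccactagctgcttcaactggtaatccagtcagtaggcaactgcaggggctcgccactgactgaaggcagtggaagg
COMP: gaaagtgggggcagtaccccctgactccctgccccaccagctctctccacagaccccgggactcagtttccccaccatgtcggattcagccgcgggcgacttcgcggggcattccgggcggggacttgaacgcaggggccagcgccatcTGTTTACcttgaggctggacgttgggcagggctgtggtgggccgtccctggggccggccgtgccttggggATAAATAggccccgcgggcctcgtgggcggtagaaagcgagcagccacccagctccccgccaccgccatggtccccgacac
RPRML: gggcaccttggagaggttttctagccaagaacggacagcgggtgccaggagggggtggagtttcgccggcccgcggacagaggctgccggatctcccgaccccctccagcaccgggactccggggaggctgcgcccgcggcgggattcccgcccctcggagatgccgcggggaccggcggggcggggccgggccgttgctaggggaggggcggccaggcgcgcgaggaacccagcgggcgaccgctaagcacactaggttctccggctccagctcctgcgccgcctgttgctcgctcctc
The match in HSPB3 starts at -127 from the start site, and those in COMP start at -101 and -31. The letters ATAAATA are the reverse complement of the second motif, and they also resemble the TATA box of many promoters. A match describes letters in the window and no binding was measured.

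Among called probes, 15 passed the background limit on all 4 arrays in the brighter culture and on none in the other, 5 higher and 10 lower in FOXP1 cells. The 7 with a symbol were all lower. They were tested on the strength of the GFP arrays alone, and the adjusted p printed beside each bound belongs to the fit of all signals, those under the limit included, not to the bound. MICA, a stress-induced ligand of the NKG2D receptor of natural killer cells, had levels of -0.77, -0.85, -0.90 and -1.02 on the GFP arrays. On the FOXP1 arrays its signals, none of them well above background, lay at -5.73, -5.78, -8.01 and -8.11, and the gene was at least 20.9-fold (adjusted p = 0.000623) lower. KCNJ6, an inward rectifier potassium channel opened by G proteins, had levels of -2.03, -0.92, -1.31 and -0.70 on the GFP arrays and was at least 16.2-fold (adjusted p = 5.28e-05) lower. HOOK1, an adaptor that links cargo to microtubules, was at least 8.18-fold (adjusted p = 0.0173) lower. Its fitted difference was -4.05 and -4.78 without the FOXP1 array of 12 h, and its call was lost under the methods' t-test with adjustment. CAMK1D, a calcium- and calmodulin-dependent kinase, was at least 5.93-fold (adjusted p = 0.00498) lower and DSCR8, a cancer-testis transcript, at least 5.72-fold (adjusted p = 0.00217). GABRA5, a subunit of the GABA-A receptor, was at least 5.05-fold (adjusted p = 0.000613) lower and PTPRN2, a membrane protein of dense-core vesicles, at least 3.90-fold (adjusted p = 0.0131). After the normexp correction the differences were -2.71 for MICA, -2.63 for KCNJ6, -1.29 for HOOK1, -0.98 for CAMK1D, -1.31 for DSCR8, -1.08 for GABRA5 and -0.90 for PTPRN2, and the calls of CAMK1D, DSCR8, GABRA5 and PTPRN2 were lost. That of PTPRN2 was also lost under the methods' t-test with adjustment, and the authors' normalized values gave -6.15 for KCNJ6 and -4.52 for DSCR8, against -5.16 and -3.65 in the main fit.

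Genes of the extracellular matrix and its enzymes formed the longest list and held the most calls by number, though not by share: 16 of 51 tested genes were called higher and 4 lower (31.4% and 7.84%, against 14.3 and 8.23% of all genes with a symbol). The median log2 difference of the list was 0.84, against 0.07 over genes with a symbol and 0.02 over all probes. Besides THBS4 and COMP, EMILIN2, a glycoprotein of elastic fibres, was at least 7.15-fold (adjusted p = 0.000132) higher, with levels of -1.28, -1.89, -2.17 and -2.15 on the FOXP1 arrays and -5.05, -5.21, -5.13 and -4.95 on the GFP arrays, of which those of 24 and 72 h were well above background. CCN2, listed as CTGF and a matricellular protein induced by TGF-beta and YAP, was at least 8.87-fold (adjusted p = 0.00123) higher, with levels of -1.11, -1.02, -1.56 and -1.55 and -4.28, -3.72, -4.44 and -5.40. ADAMTS12, a secreted metalloproteinase, went the other way, with levels of -4.29, -4.29, -3.88 and -4.01 and -0.51, -0.52, -0.14 and -0.28. It was at least 11.8-fold (adjusted p = 1.75e-05) lower and measured on 2 of 4 FOXP1 arrays. Of the list, 16 of these 20 calls held with each array left out in turn, and 20 after the normexp correction, and 29 of the 51 genes tested stood on the study's list for the line. Corrected with normexp, the differences were 1.93 for EMILIN2, 2.00 for CCN2 and -2.65 for ADAMTS12. Among the integrins, receptors for the matrix, 2 of 7 tested genes were called higher and 0 lower. ITGBL1, a secreted relative of beta integrins, was at least 8.01-fold (adjusted p = 0.000157) higher, and 2.14 on the log2 scale after the correction.

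**Figure D3:**
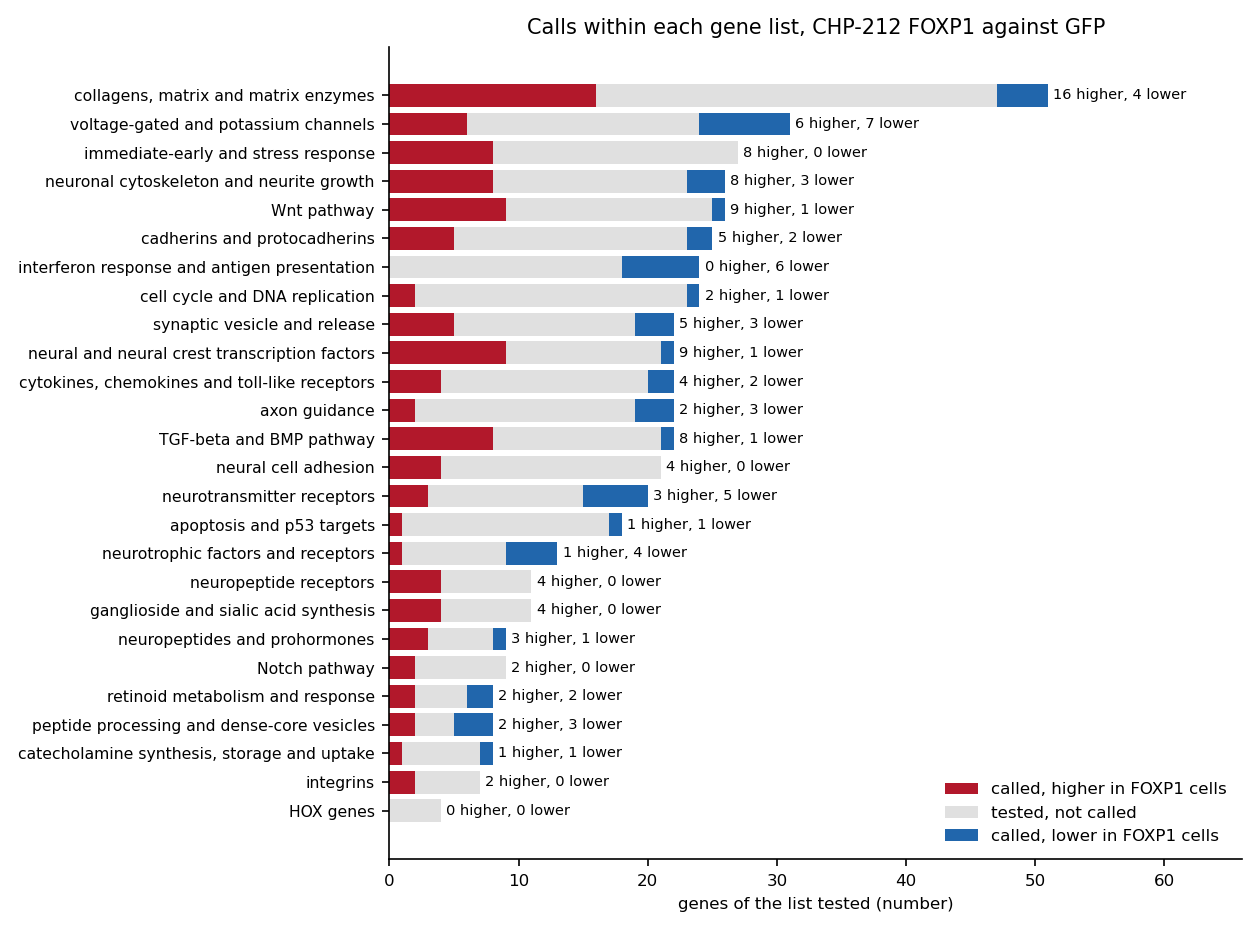
Number of tested genes of each list in CHP-212 (x axis), split into those called higher in FOXP1 cells (red), those called lower (blue) and those not called (grey). Matrix genes had 16 higher and 4 lower of 51, and interferon and antigen presentation genes 0 higher and 6 lower of 24.

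In the Wnt pathway, 9 of 26 tested genes were called higher and 1 lower (34.6% and 3.85%; median difference 0.25). The calls include secreted antagonists, an agonist and a target. DKK2, a relative of DKK1, had levels of -0.19, -0.31, -1.06 and -0.79 on the FOXP1 arrays and -2.25, -2.95, -3.20 and -3.47 on the GFP arrays and was 5.20-fold (log2 difference 2.38, adjusted p = 0.003) higher. RSPO1, an enhancer of Wnt signals, had levels of -1.96, -2.08, -1.94 and -2.20 and -6.66, -5.72, -5.39 and -5.10 and was at least 6.80-fold (adjusted p = 0.000421) higher, with 2 of 4 GFP arrays measured. MYC, a growth-promoting transcription factor and a known Wnt target, had levels of -1.84, -2.28, -2.34 and -3.49 and -6.46, -4.79, -5.90 and -6.82. It was at least 6.89-fold (adjusted p = 0.00457) higher, and without both 0 h arrays the call was lost (3.13, adjusted p = 0.05). The gene called lower was KREMEN2. Of the list, 9 of these 10 calls held with each array left out in turn, and 10 after the normexp correction. The normexp values were 2.18 for RSPO1 and 1.69 for MYC.

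In the TGF-beta and BMP pathway, 8 of 22 tested genes were called higher and 1 lower (36.4% and 4.55%; median difference 0.71). Secreted binding proteins were among the genes called higher. LTBP1, which stores latent TGF-beta in the matrix, was at least 9.31-fold (adjusted p = 0.0013) higher, with levels of 0.11, -0.65, -0.68 and -0.86 on the FOXP1 arrays and -4.32, -2.79, -3.84 and -4.00 on the GFP arrays. GREM1, an antagonist of BMP ligands, had a mean level of -0.57 (SD 0.30, n = 4) on the FOXP1 arrays and -3.36 (SD 0.57, n = 4) on the GFP arrays and was 6.93-fold (log2 difference 2.79, adjusted p = 0.00114) higher. PMEPA1, listed as TMEPAI and a feedback inhibitor that TGF-beta induces, had levels of 1.62, 0.00, 0.21 and -0.09 and -2.11, -2.23, -1.87 and -1.98. Its FOXP1 arrays were highest at 0 h, and the difference was 5.58-fold (log2 difference 2.48, adjusted p = 0.00586). Of the list, 8 of these 9 calls held with each array left out in turn, and 7 after the normexp correction. The normexp values were 2.30 for LTBP1 and 2.11 for GREM1. In the Notch pathway, 2 of 9 tested genes were called higher and 0 lower (median difference 0.48), and the call of DNER alone held with each array left out.

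Among transcription factors of the nervous system and neural crest, 9 of 22 tested genes were called higher and 1 lower (40.9% and 4.55%; median difference 0.70). FOXC1, a forkhead factor of cranial mesenchyme, had levels of 4.44, 3.76, 4.08 and 4.01 on the FOXP1 arrays and 1.76, 1.51, 1.99 and 1.84 on the GFP arrays and was 4.92-fold (log2 difference 2.30, adjusted p = 0.000384) higher. NEUROG2, a proneural factor of sensory neurons, had levels of -0.26, -0.45, -0.30 and -0.12 and -2.16, -2.73, -2.70 and -2.38 and was 4.63-fold (log2 difference 2.21, adjusted p = 0.00034) higher. SNAI1 was 3.09-fold (log2 difference 1.63, adjusted p = 0.0027) higher. In these genes the cultures were apart at every time point. Of the list, 6 of these 10 calls held in the fits with an array left out that tested them, and 8 after the normexp correction. Without some arrays, 1 of the 10 could not be tested. Of 15 HOX genes, 4 were tested, with 0 called at an adjusted p under 0.05 in limma. HOXC9, which the study follows, had a difference of 1.11 (adjusted p = 0.144) on signals well above background at 24 and 72 h only. Its lower bound was 1.03-fold, so a 2-fold size rests on signals under the limit of detection. HOXC9 passed the threshold without the FOXP1 array of 12 h (1.46, adjusted p = 0.0317) and with all 24 arrays in 1 fit (0.0101).

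Of the calls among peptides and their receptors, 1 was lower and the others higher. Among neuropeptides and prohormones, 3 of 9 tested genes were called higher and 1 lower, and among neuropeptide receptors, 4 of 11 tested genes were called higher and 0 lower (medians 0.60 and 0.63). CRH, the hormone that starts the stress axis, had levels of 3.47, 2.05, 2.04 and 1.44 on the FOXP1 arrays and -0.02, -0.41, -0.65 and -0.87 on the GFP arrays. Both cultures were highest at 0 h, and CRH was 6.66-fold (log2 difference 2.74, adjusted p = 0.00648) higher in FOXP1 cells. PNOC, the precursor of nociceptin, was at least 7.45-fold (adjusted p = 6.97e-05) higher, with 1 of 4 GFP arrays measured. UTS2D, related to the vasoactive peptide urotensin, had levels of -5.41, -5.69, -4.63 and -4.31 and -0.88, -1.05, -1.12 and -0.97 and was at least 8.99-fold (adjusted p = 0.000211) lower. Among the receptors, besides SSTR2, VIPR1 for vasoactive intestinal peptide had levels of 1.09, 0.68, 1.58 and 0.99 and -1.67, -1.57, -0.73 and -1.23. It was 5.22-fold (log2 difference 2.38, adjusted p = 0.00146) higher, and the call was lost with all 24 arrays in 1 fit (adjusted p = 0.0619).

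NPY5R and NPY1R, a pair of receptors for NPY, were higher together with their ligand. NPY5R had levels of -0.69, -0.02, -0.39 and 0.48 on the FOXP1 arrays and -2.14, -1.68, -1.99 and -1.79 on the GFP arrays and was 3.36-fold (log2 difference 1.75, adjusted p = 0.00634) higher. NPY1R had levels of -1.01, 0.42, -0.07 and 1.04 and -3.02, -1.93, -2.14 and -2.02 and was 5.18-fold (log2 difference 2.37, adjusted p = 0.0171) higher, and without the FOXP1 array of 12 h the call was lost (2.26, adjusted p = 0.0522), as it was under the methods' t-test with adjustment. In both genes the lowest FOXP1 array, that of 0 h, was still above all GFP arrays. With the normexp correction, peptides of the preceding paragraph had differences of 1.81 for PNOC and -2.14 for UTS2D.

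Ion channels and neurotransmitter receptors were divided. Among voltage-gated and potassium channels, 6 of 31 tested genes were called higher and 7 lower (19.4% and 22.6%), and among neurotransmitter receptors, 3 of 20 tested genes were called higher and 5 lower (15.0% and 25.0%). The lower calls include KCNJ6 in the first list and GABRA5 in the second, which were tested on the strength of the GFP arrays alone. SCN9A, a sodium channel of sympathetic and pain-sensing neurons, had levels of 1.37, 1.89, 1.80 and 2.15 on the FOXP1 arrays and -1.12, -1.09, -0.84 and -0.96 on the GFP arrays and a difference of 2.81 (adjusted p = 0.000132). KCNK13, a background potassium channel, was at least 3.01-fold (adjusted p = 0.00105) higher with 1 of 4 GFP arrays measured. KCNIP4, which modulates A-type potassium channels, was at least 2.41-fold (adjusted p = 0.00619) higher, measured on 3 FOXP1 and 2 GFP arrays, with a difference of 3.14 in the authors' normalized values against 2.37 in the main fit. CACNA1I, a low-voltage-activated calcium channel, was at least 3.85-fold (adjusted p = 0.00783) lower, and its call was lost without both 0 h arrays (adjusted p = 0.0692). Of the channel list, 10 of these 13 calls held in the fits with an array left out that tested them, and 10 after the normexp correction. With a GFP array left out, KCNJ6 could not be tested. The medians of the channel and transmitter receptor lists, -0.13 and 0.08, had the opposite sign under at least 1 other scaling. Among members well above background on all 8 arrays they were 0.09 (10 channel genes) and -1.14 (5 receptor genes).

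HTR2B, a serotonin receptor, had levels of 0.09, 0.90, 0.66 and 0.82 on the FOXP1 arrays and -1.77, -2.06, -2.48 and -2.27 on the GFP arrays and was 6.77-fold (log2 difference 2.76, adjusted p = 0.000423) higher. CHRNA3, a subunit of the nicotinic receptor of autonomic ganglia, had levels of 2.51, 2.53, 2.80 and 2.64 and 0.57, 1.03, 1.38 and 0.67 and was 3.26-fold (log2 difference 1.71, adjusted p = 0.00232) higher. GRIA3, an AMPA-type glutamate receptor subunit, was at least 5.14-fold (adjusted p = 0.00139) higher, with 2 of 4 GFP arrays measured. GRIN3A, an NMDA-type subunit, had a mean level of -0.55 (SD 0.37, n = 4) on the FOXP1 arrays and 0.93 (SD 0.28, n = 4) on the GFP arrays and was 2.80-fold (log2 difference -1.48, adjusted p = 0.00784) lower, and P2RX5, an ATP-gated channel, was 2.20-fold (log2 difference -1.14, adjusted p = 0.00771) lower, with its call lost after the normexp correction (-0.96). Subunits of ionotropic receptors were therefore called in both directions. After the correction the differences of genes named in this and the preceding paragraph that moved by more than 1.5-fold were 1.20 for KCNK13, 1.21 for KCNIP4, -1.07 for CACNA1I and 1.66 for GRIA3. Of the transmitter receptor list, 6 of these 8 calls held in the fits with an array left out that tested them, and 4 after the normexp correction. Without some arrays, 2 of the 8, GABRA5 among them, could not be tested.

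At the synapse, 5 of 22 tested genes were called higher and 3 lower (22.7% and 13.6%; median difference 0.06). SLC18A3, the vesicular transporter of acetylcholine, had levels of -1.10, -1.44, -1.43 and -2.13 on the FOXP1 arrays and -3.64, -3.88, -4.19 and -4.21 on the GFP arrays and was 5.48-fold (log2 difference 2.45, adjusted p = 0.000933) higher. SYT17, a synaptotagmin, was at least 18.3-fold (adjusted p = 3.23e-05) lower, with levels of -3.75, -3.81, -3.28 and -3.55 and 0.15, 0.50, 0.93 and 0.82 and 2 of 4 FOXP1 arrays measured. SH3GL3, an endophilin of vesicle recycling, was at least 8.90-fold (adjusted p = 0.000132) lower, with 2 of 4 FOXP1 arrays measured. Of the list, 7 of these 8 calls held in the fits with an array left out that tested them, and 6 after the normexp correction. Without some arrays, 2 of the 8 could not be tested. The normexp values were 1.81 for SLC18A3, -3.19 for SYT17 and -2.28 for SH3GL3. Among 8 tested genes of catecholamine synthesis, storage and uptake, 1 was called higher and 1 lower. The lower call, that of SLC18A2, was lost after the normexp correction and with single arrays left out. DBH, which makes noradrenaline, was at least 1.98-fold (adjusted p = 0.0147) higher, with 3 FOXP1 and 2 GFP arrays measured. Its difference was 2.07 in the main fit and 2.79 in the authors' normalized values. The call was lost after the normexp correction (1.00, adjusted p = 0.0588), under the methods' t-test with adjustment, on the 24 and 72 h slide alone (1.31, 0.294) and without both 0 h arrays (1.84, 0.11). With the time point as a replicate block it was lost as well.

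In the neuronal cytoskeleton and neurite growth, 8 of 26 tested genes were called higher and 3 lower (30.8% and 11.5%; median difference 0.50). TUBB2A and TUBB2B are closely related beta-tubulins that a probe may not fully separate. TUBB2A had levels of 5.13, 4.42, 4.41 and 3.87 on the FOXP1 arrays and 3.07, 2.84, 2.29 and 2.28 on the GFP arrays and was 3.57-fold (log2 difference 1.84, adjusted p = 0.00979) higher. TUBB2B had levels of -1.31, -2.03, -2.05 and -2.07 and -4.13, -3.39, -3.58 and -3.61 and was 3.51-fold (log2 difference 1.81, adjusted p = 0.00379) higher. FMN2 was higher as well, while BASP1 and SNCG were lower. MAP2, a dendritic microtubule protein, had a difference of -0.45 (adjusted p = 0.33). Of the list, 8 of these 11 calls held with each array left out in turn, and 10 after the normexp correction.

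Adhesion and guidance molecules were called in both directions. Among cadherins and protocadherins, 5 of 25 tested genes were called higher and 2 lower, among neural cell adhesion molecules, 4 of 21 tested genes were called higher and 0 lower, and in axon guidance, 2 of 22 tested genes were called higher and 3 lower (medians 0.59, 0.24 and -0.03, of which the last was 0.18 after the normexp correction). CDH18, a cadherin of the nervous system, had levels of -1.98, -1.49, -1.59 and -1.51 on the FOXP1 arrays and -4.14, -4.09, -3.91 and -4.13 on the GFP arrays and was 5.37-fold (log2 difference 2.43, adjusted p = 0.000132) higher. PCDH8, a protocadherin, was at least 5.76-fold (adjusted p = 0.000132) lower, with 2 of 4 FOXP1 arrays measured. LRRTM1, which organises excitatory synapses, was at least 4.58-fold (adjusted p = 0.00337) higher. EPHA3, a receptor of ephrin-A ligands, was at least 7.85-fold (adjusted p = 1.68e-05) lower, with 1 of 4 FOXP1 arrays measured and levels of -2.48, -1.99, -2.26 and -2.07 on the GFP arrays. The calls of these 4 genes held with each array left out. Of all calls in the cadherin list 4 of 7 did so, in neural adhesion 1 of 4 and in axon guidance 2 of 5, and 6, 1 and 2 stayed called after the normexp correction. The normexp values were 1.76 for CDH18, -1.49 for PCDH8, 1.43 for LRRTM1 and -1.77 for EPHA3. In the authors' normalized values PCDH8 had -4.66 and EPHA3 -5.10, and after quantile normalization -4.28 and -4.71, against -3.64 and -4.09 in the main fit.

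Genes of the interferon response and antigen presentation were called in 1 direction, 0 higher and 6 lower of 24 tested (25.0% lower, against 8.23% of all genes with a symbol; median difference -0.64, and -0.32 after the normexp correction). Among the 15 members well above background on all 8 arrays, 2 were called and the median difference was -0.41, and MICA was tested on the strength of the GFP arrays alone. Besides MICA the calls include its relative MICB, at least 3.04-fold (adjusted p = 0.000654) lower, and IFI44L, an interferon-induced gene, at least 4.22-fold (adjusted p = 0.00203) lower. IFI44L had levels of -5.00, -4.45, -3.62 and -4.20 on the FOXP1 arrays and -2.08, -2.07, -1.52 and -1.60 on the GFP arrays, and both genes were measured on 2 of 4 FOXP1 arrays. IFITM1, a membrane protein that limits virus entry, had levels of -1.39, -1.29, -0.20 and -1.08 and 0.23, 0.61, 1.21 and 1.07 and was 3.41-fold (log2 difference -1.77, adjusted p = 0.0163) lower. Its call was lost without the FOXP1 array of 12 h (-1.67, adjusted p = 0.0505) and under the methods' t-test with adjustment. The normexp values were -0.88 for MICB and -1.33 for IFI44L, and the call of MICB was lost. Of the list, 5 of these 6 calls held in the fits with an array left out that tested them, and 4 after the normexp correction. Without some arrays, 2 of the 6, MICA among them, could not be tested.

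Among cytokines, chemokines and toll-like receptors, 4 of 22 tested genes were called higher and 2 lower (median difference -0.13, and 0.29 after the normexp correction). Among the 6 members well above background on all 8 arrays the median was 1.10. Of the 6 calls, 4 held in the fits with an array left out that tested them, and 1 could not be tested without some arrays. After the normexp correction 3 calls stayed, and those of IL2RB and LIF, the genes called lower, were lost. CXCL12, a chemokine that guides migrating cells through CXCR4, had levels of 2.96, 2.32, 2.76 and 2.53 on the FOXP1 arrays and 0.95, 0.70, 0.26 and 0.23 on the GFP arrays and was 4.31-fold (log2 difference 2.11, adjusted p = 0.00122) higher. IL21R, a cytokine receptor of lymphocytes, was at least 4.23-fold (adjusted p = 0.0026) higher, and 1.47 on the log2 scale after the correction. Among immediate-early and stress genes, 8 of 27 tested genes were called higher and 0 lower (29.6% and 0.0%; median difference 0.75). SGK1, a kinase induced by serum and glucocorticoids, had levels of 0.20, -0.04, 0.28 and 0.54 and -1.91, -2.52, -1.79 and -2.07 and was 4.98-fold (log2 difference 2.32, adjusted p = 0.000524) higher, beside CCN2 and MYC. Of the last list, 5 of these 8 calls held with each array left out in turn, and 5 after the normexp correction.

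Lists of growth and death held few calls. In the cell cycle and DNA replication, 2 of 24 tested genes were called higher and 1 lower (median difference -0.33), and in apoptosis and p53 targets, 1 of 18 tested genes were called higher and 1 lower (median 0.18). The shares called higher and lower, 8.33% and 4.17% in the first and 5.56% and 5.56% in the second, were below those of all genes with a symbol. CDK6, a kinase that drives entry into S phase, had levels of 2.15, 2.51, 2.08 and 2.68 on the FOXP1 arrays and 0.63, 1.04, 1.06 and 1.17 on the GFP arrays and was 2.60-fold (log2 difference 1.38, adjusted p = 0.00608) higher. PERP, a p53 target of cell junctions, had levels of -0.24, -0.51, -0.28 and -0.36 and -1.88, -1.85, -2.07 and -1.94 and was 3.01-fold (log2 difference 1.59, adjusted p = 0.000524) higher. Both calls held with each array left out, and the other 3 calls of these lists did not. PLCG2, a phospholipase of receptor signalling, was at least 1.82-fold (adjusted p = 0.0101) lower, with 2 of 4 FOXP1 arrays measured and a fitted difference of -1.08. The call was lost without the FOXP1 array of 72 h (-0.95), after the normexp correction (-0.10), with all 24 arrays in 1 fit (adjusted p = 0.469) and without both 0 h arrays (adjusted p = 0.0589). DAPK1, a kinase that promotes cell death, was well above background on 0 FOXP1 arrays and 1 GFP array and was not tested.

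Whether the difference between the cultures itself differed between the slides was tested as a contrast. At an adjusted p under 0.05, limma called 0 of 32958 probes (0.0%), with 1455 at an unadjusted p under 0.05, a lowest adjusted p of 0.447 and 5 calls without the GFP array of 72 h. Among the genes above, MICA, DKK1 and PTPRN2 were examples with larger differences at 24 and 72 h (-7.10, 4.02 and -5.36) than at 0 and 12 h (-4.95, 2.79 and -2.51). HOOK1, CAMK1D, DSCR8 and CRYM were others, with -5.33, -4.67, -4.72 and -3.41 at 24 and 72 h and -2.78, -2.30, -2.58 and -2.39 at 0 and 12 h. UTS2D and DBH had larger differences at 0 and 12 h (-4.58 and 2.83) than at 24 and 72 h (-3.42 and 1.31), as had MICB (-3.11 and -2.07). For MICA, PTPRN2, HOOK1, CAMK1D and DSCR8 the FOXP1 signals were under the limit of detection on both slides. At 0 and 12 h so were the FOXP1 signals of UTS2D and MICB and the GFP signals of DBH. The values of these genes are therefore not measured sizes. A count of 0 in a test of 2 arrays against 2 on each slide does not show that the differences were equal. Among called probes well above background on all 8 arrays, the median absolute difference was 1.44 at 0 and 12 h and 1.29 at 24 and 72 h, and among those measured at 24 and 72 h alone it was 1.38 and 1.34.

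The lead genes were compared with the other lines in a fit of all 24 arrays. The difference between FOXP1 and GFP arrays in CHP-212 was set against that in IMR-32, where 4278 of 36075 probes (11.9%) were called, and against that in SK-N-BE(2), where 997 of 36105 (2.76%) were called. Of the 21 described lead genes, 17 passed against IMR-32 and 20 against SK-N-BE(2). They were chosen for their difference in CHP-212, and so these counts only describe them. SSTR2 had differences of -2.04 in IMR-32 and -0.36 in SK-N-BE(2), and THBS4 of -2.58 and -0.82. In IMR-32, DKK1, BDKRB1 and COMP were also opposite to CHP-212, with -6.17, -2.90 and -1.38, each on signals not well above background on all 8 arrays of that line. PDGFRA had positive differences in the other lines as well, with 1.73 and 1.11. The contrast with IMR-32 did not pass for RPRML (adjusted p = 0.287), KREMEN2 (0.0948), HSD11B2 (0.166) and BASP1 (0.756), whose differences in IMR-32 were -2.66, -2.32, -3.19 and -1.99. That with SK-N-BE(2) did not pass for LAMC3 (adjusted p = 0.108). The contrast of LAMC3 with IMR-32 lost its call without the FOXP1 array of 12 h (-1.57, adjusted p = 0.0636) or the GFP array of 24 h (-1.64, adjusted p = 0.0588). That of COMP with SK-N-BE(2) lost it without the FOXP1 array of 24 h (2.12, adjusted p = 0.063) or the GFP array of 0 h (2.14, adjusted p = 0.0622), 24 h (2.16, adjusted p = 0.0605) or 72 h (2.20, adjusted p = 0.056). The normexp correction ended the call of FXYD6 against IMR-32 (-0.75, adjusted p = 0.223) and, against SK-N-BE(2), those of DKK1 (2.48, adjusted p = 0.13), KCNMA1 (1.40, adjusted p = 0.0635), COMP (2.53, adjusted p = 0.0856), CRYM (-1.96, adjusted p = 0.0725), ARHGEF16 (-2.29, adjusted p = 0.0766), HSD11B2 (-1.58, adjusted p = 0.283) and SNCG (-1.61, adjusted p = 0.263). The FOXP1 probe itself was not higher on the FOXP1 arrays of SK-N-BE(2), with a difference of -0.20.

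**Figure D4:**
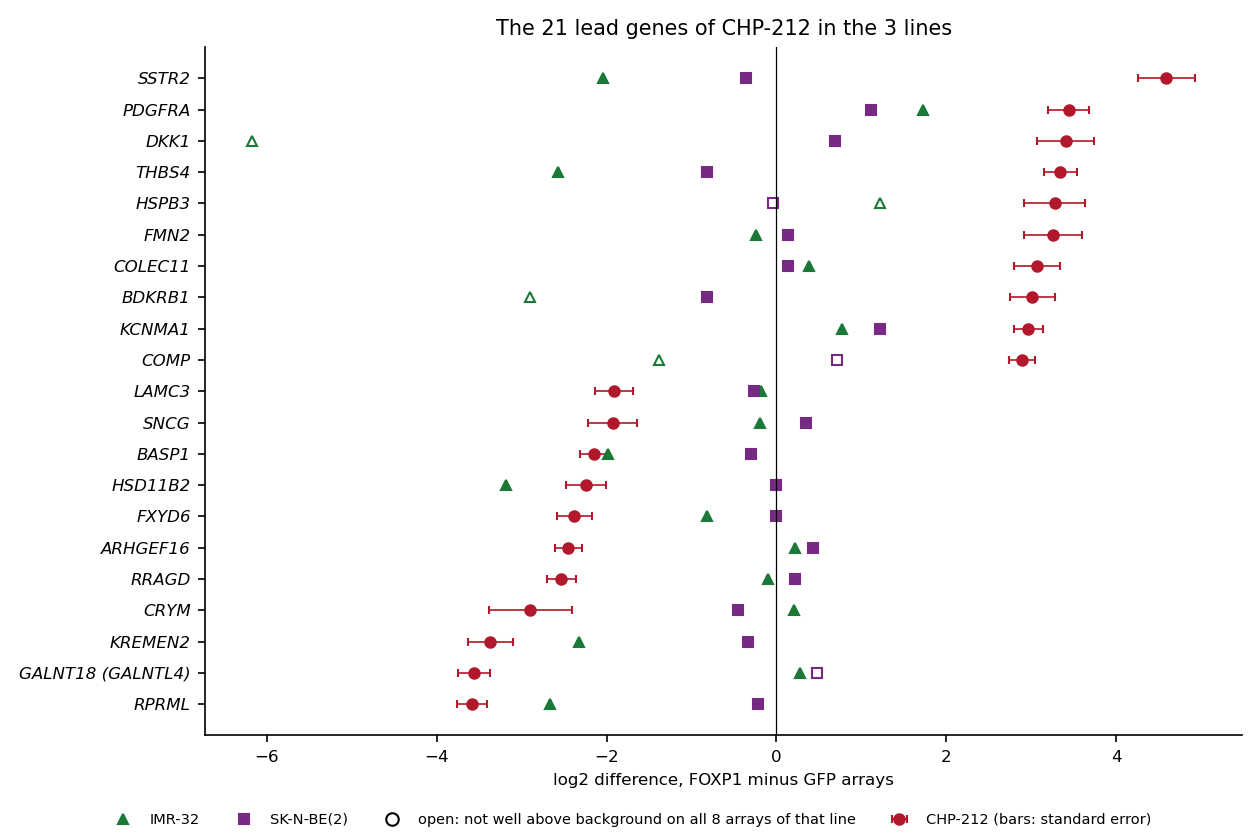
Log2 difference (FOXP1 minus GFP arrays, 4 against 4) of the 21 described lead genes in CHP-212 (red circles, with the standard error), IMR-32 (green triangles) and SK-N-BE(2) (purple squares). Open symbols mark genes not well above background on all 8 arrays of that line. The genes were chosen in CHP-212. The differences in SK-N-BE(2) lie between -0.82 and 1.22.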

How the data were processed

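Intensity was measured on 1-colour oligonucleotide arrays. The deposited processed intensity of a spot is, per the file headers, its signal after removal of local background and of trends across the array, with no scaling to other arrays. A further deposited table holds the authors' normalized intensity on a linear scale, used for 1 alternative. Without control spots 43291 probes remained, and 205 spots flagged as outliers were set to missing. The 75th percentile of the processed signal was 398, 1091, 1089 and 953 on the FOXP1 arrays of 0, 12, 24 and 72 h and 1501, 1800, 1049 and 902 on the GFP arrays, and log2 values were set relative to it.

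Probes with 4 or more of the 8 arrays well above background were tested unpaired, 4 arrays against 4, with limma 3.58.1 in R 4.3.3 and the Benjamini-Hochberg adjustment. The unpaired, time-block and slide-contrast fits were tried on simulated arrays with independent noise and 200 changed probes. For the contrast between slides the simulated spread was smaller than the observed one. That trial therefore does not show what the contrast could find at the observed spread. The contrast between slides used the same arrays and that between lines all 24. Percents over all probes are given for each comparison as the background of its count. Python 3.11.15 with pandas 2.3.3, numpy 2.4.6 and, for the figures, matplotlib 3.10.9 did the rest.

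Symbols came from the study's supplementary list of differing probes, of which part was available, 1 probe per symbol, never its values, and current RefSeq symbols are given with the listed ones. The genes named are the markers given with the cultures, genes the study discusses, the lead genes, up to 5 called genes per direction measured on all arrays of 1 culture and none of the other, and up to 4 called members per direction of the lists, with CD34 added later as an uncalled marker. The lists cover signalling, matrix, adhesion, neuronal, immune and growth functions and cell type markers. The members and lists were chosen with earlier results of these data known. Alternatives were the normexp background correction (on median spot and local background intensities, since the deposited files hold no means, with an offset of 50, which draws differences of dim probes towards 0), other scalings, filters, blocks, single slides, all 24 arrays in 1 fit, the methods' t-test and leaving out arrays. A fit in which too few arrays were left to test a probe was not counted as a lost call.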

Additional observations from a re-analysis of the deposited data

Results flagged for a closer look

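In the groups of 4 arrays, 18 of 290 tested had a value far from the other 3, judged by the gap to the nearest array over the range of the group. About 1 in 20 such groups would pass the limit by chance. On the FOXP1 arrays the gap over the range was 0.924 for FXYD6 (lowest, 12 h), 0.851 for PCDHB16 (highest, 0 h), 0.857 for PRIM1 (lowest, 0 h), 0.928 for IL32 (lowest, 12 h), 0.866 for B4GALT6 (highest, 72 h), 0.895 for EGR2 (highest, 0 h), 0.83 for LRRTM1 (highest, 72 h), 0.934 for TENM2 (lowest, 24 h), 0.948 for TUBB2B (highest, 0 h) and 0.953 for ADORA1 (lowest, 72 h). On the GFP arrays it was 0.916 for FMN2 (highest, 12 h), 0.878 for JAG1 (highest, 24 h), 0.854 for NRP2 (lowest, 72 h), 0.84 for GAP43 (highest, 0 h), 0.88 for TUBA4A (highest, 12 h), 0.956 for GRIA3 (lowest, 12 h), 0.881 for GRIN3A (lowest, 0 h) and 0.934 for PAM (lowest, 0 h). In each case the named array is the one that stands apart. These arrays were kept, and the cause was not tested.

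The difference between FOXP1 and GFP arrays differed between lines for 4278 probes in the contrast of CHP-212 with IMR-32 and 997 in that with SK-N-BE(2), which flagged the lead genes as well. Against IMR-32, the log2 contrast was 6.63 for SSTR2, 1.71 for PDGFRA, 9.57 for DKK1, 5.92 for THBS4, 2.05 for HSPB3, 3.50 for FMN2, 2.69 for COLEC11, 5.91 for BDKRB1, 2.20 for KCNMA1 and 4.28 for COMP. In the lower direction it was -3.83 for GALNT18, -3.11 for CRYM, -2.44 for RRAGD, -2.67 for ARHGEF16, -1.57 for FXYD6, -1.73 for SNCG and -1.73 for LAMC3. Against SK-N-BE(2), it was 4.95 for SSTR2, 2.33 for PDGFRA, 2.71 for DKK1, 4.16 for THBS4, 3.32 for HSPB3, 3.12 for FMN2, 2.93 for COLEC11, 3.82 for BDKRB1, 1.75 for KCNMA1 and 2.18 for COMP. Among the lead genes lower in CHP-212, it was -3.37 for RPRML, -4.03 for GALNT18, -3.03 for KREMEN2, -2.45 for CRYM, -2.75 for RRAGD, -2.88 for ARHGEF16, -2.37 for FXYD6, -2.24 for HSD11B2, -1.85 for BASP1 and -2.27 for SNCG. The lead genes were chosen for their difference in CHP-212, and a larger value there than elsewhere follows in part from that choice.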

How the results depend on the processing

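The count of 994 called probes (637 higher, 357 lower) was 604 (456 and 148) after the normexp correction, 628 (447 and 181) among probes well above background on all 8 arrays, 543 on the 24 and 72 h slide alone, 90 on the 0 and 12 h slide alone, 644 under the methods' t-test with adjustment and 638 without both 0 h arrays, a fit added after the data were seen. Fewer probes or arrays entered the filter and the single-slide and 0 h fits; for normexp and the t-test the cause was not tested. Other counts were 967 after quantile normalization and with the percentile taken over probes on all 8 arrays, 916 with the authors' values, 951 with all 4 arrays of at least 1 group, 748 without a filter, 1239 with the slide as a block, 1199 with all 24 arrays, 1374 at an unadjusted p, and 663 to 1212 with 1 array left out. Of 135 called genes named, 28 were called under every setting that tested them, 42 lost the call after the normexp correction and 36 when an array was left out. The normexp correction moved the median difference of all probes from 0.02 to 0.14.

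TH had a difference of -0.10 on the 24 and 72 h slide alone, a fit of 4 arrays. BASP1 in the contrast with IMR-32 had 0.0485 after the normexp correction against -0.16, and the cause was not tested. The contrast between slides called 0 probes in every fit but 5 without the GFP array of 72 h. The contrast with IMR-32 gave 1922 after normexp, 2263 among probes measured on all arrays and 3871 to 4871 with a CHP-212 array left out. That with SK-N-BE(2) gave 265, 606 and 879 to 1462. The leave-one-out fits of these contrasts were added after the data were seen.

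With the time point as a replicate block the count was 1169, which held 949 of the 994 calls. DBH (adjusted p = 0.0512) and B4GALT6 (adjusted p = 0.0539) lost their calls there, and NEFL and RET gained one. The correlations between the arrays of a time point were 0.0530, 0.491, 0.549 and 0.446 at 0, 12, 24 and 72 h. Only that of 0 h was near 0, so these values do not by themselves decide for the unpaired fit, which was kept as the main fit. By the same deviations, the FOXP1 array of 0 h correlated best with the GFP array of 12 h and the others with their own time.

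The arrays are time points of 1 polyclonal pool per transgene, so the p-values do not cover differences between separately made cultures, and time cannot be separated from slide. The limit of detection on the slide of 0 and 12 h bounds what can be said of dim genes, and probes without a symbol could not be described.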

Other observations

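In retinoid metabolism and response, 2 of 8 tested genes were called higher and 2 lower. ALDH1A1, which makes retinoic acid, was at least 4.27-fold (adjusted p = 0.00203) lower in FOXP1 cells, with 2 of 4 FOXP1 arrays measured and levels of -3.48, -2.15, -2.55 and -1.88 on the GFP arrays of 0, 12, 24 and 72 h. Its difference was -1.39 after the normexp correction. Genes of this pathway were thus called in both directions, and the call of ALDH1A1 held with each array left out.

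In ganglioside and sialic acid synthesis, 4 of 11 tested genes were called higher and 0 lower (36.4% and 0.0%). ST6GAL2, a sialyltransferase, had levels of 0.70, 0.54, 0.84 and 1.17 on the FOXP1 arrays and -0.49, -0.45, -0.22 and -0.14 on the GFP arrays and was 2.21-fold (log2 difference 1.14, adjusted p = 0.00921) higher. It lost the call without both 0 h arrays (adjusted p = 0.0586). It is the only 1 of the 4 calls that held after the normexp correction. Among neurotrophic factors and receptors, 1 of 13 tested genes were called higher and 4 lower, and in peptide processing and dense-core vesicles, 2 of 8 tested genes were called higher and 3 lower, with 0 of these calls left after the normexp correction. NTF3, a neurotrophin, was at least 1.79-fold (adjusted p = 0.00368) lower before it (-0.46 on the log2 scale after it), and PCSK6, a proprotein convertase, was at least 2.06-fold (adjusted p = 0.00803) lower (-0.48 after it). The lower calls in peptide processing include PTPRN2, which was tested on the strength of the GFP arrays alone.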
